A study of Mus musculus with 2 samples.

Results

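Cytosolic ribosomal protein genes are described here from long-read RNA sequencing of the gastrocnemius, the large fast muscle of the calf. A gene was taken as a member where its symbol began with Rpl or Rps followed by a number, where it was Rplp0, Rplp1 or Rplp2, or where it was Rpsa, provided that the annotation gave it as protein-coding. Names of the pseudogene form "-ps" and the S6 kinases were left out. The rule found 84 members with a count among 17859 annotated mouse genes with a count and 14734 protein-coding ones. Of these, 50 encode proteins of the large subunit or close relatives of them and 33 those of the small subunit. The remaining one, Rps19bp1, carries the name but encodes a protein that binds Rps19 and is no part of the ribosome. Rpl10l and Rpl39l also matched the rule and had 0 counts in both libraries. The muscle came from male B6CASTF1/J mice 4 days old, a cross of an inbred laboratory strain with a wild-derived one. The series has 1 group of 2 biological replicates with 1 library each from 2 µg of RNA, so there is no control or treated group. The labels give separate biosamples under 1 donor entry, and whether the replicates are 2 animals is not settled by them.

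The cytosolic ribosome joins a large and a small subunit, each built of ribosomal RNA and a set of proteins that are mostly present in 1 copy. Messenger RNAs of these proteins usually begin with a C and a run of pyrimidines, the 5′ terminal oligopyrimidine tract, through which mTOR and Larp1 control their translation together. Growing muscle fibres make many ribosomes. A few ribosomal proteins have a second gene with a restricted pattern, and the best known in striated muscle is Rpl3l, which stands in for Rpl3 in mature fibres. Rps24 is known for short alternative exons at the end of its coding sequence.

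The first bases of the most counted annotated coding transcript show how far the GENCODE M21 start sites carry this tract. They are printed for 3 members, 5′ to 3′ from mm10, with a C and the pyrimidines after it in capitals.
Rpl4, chr9:64173375-64173394, + strand: CTTTTCCTgtgggagcagcc
Rps24, chr14:24490718-24490737, + strand: CTCTTTTCCTCCTCTCCagc
Rpl5, chr5:107900502-107900521, + strand: cagccaCTCTTTCTCacgtc
The tract began at the first base in Rpl4 and Rps24 and at base 7 in Rpl5. In Rps24 this annotated transcript had only 10 counts in each library. Unannotated Rps24 models with 30 and 36 counts began as far upstream as position 24490681, before the printed start. A C with at least 4 more pyrimidines at the first base was found in 9 of 82 members (11.0%), against 2.34% of 12379 other protein-coding genes. Such a run began within the first 10 bases in 29 members (35.4%), against 16.8% of the others. The letters CTTT lay within the first 20 bases in 15.9% of members and 5.53% of the others, and their reverse complement AAAG in 8.54% and 5.80%. These are annotated starts, since the counts of annotated transcripts carry no start of their own, and a match describes the letters in this window only.

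The short exon of Rps24 is shown because it was the one internal exon of the members tested at 5 to 95% inclusion in both libraries. It was read with a pair of 3′ ends, and the sequence is from mm10, chromosome 14, + strand.
18-base form, chr14:24494052-24494069: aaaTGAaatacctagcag
Further bases of the 36-base form, chr14:24494070-24494087: GTactgccattgggcacg
The capitals mark the stop codon that the exon brings into frame, and the GT at which the 18-base form is spliced. The intron after the 36-base form also began with GT (GTGTGG).

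Ribosomal protein genes held 1.53% of the counts on annotated genes in replicate 1 (15243 of 998659, exact 95% interval 1.502 to 1.551%) and 2.14% in replicate 2 (21969 of 1026257, 2.11 to 2.17%). The mean share was 1.83 ± 0.434% (SD, n = 2), with 1.24 ± 0.302% on the large and 0.590 ± 0.131% on the small subunit. The intervals cover counting error only. The share was therefore lower in replicate 1 by more than counting error. Levels are in CPM, the counts scaled to a library of 1000000 counts on annotated genes, where 1 count is 1 read and a long read stands for 1 cDNA molecule. Levels are also given per kilobase of the longest annotated coding transcript. The median member stood at 160 CPM (quartiles 87.0 and 236), against 15.3 CPM in 14650 other protein-coding genes with a count. Per kilobase the medians were 173 and 4.70 CPM, and 97.6% of the other genes lay under the median of the members.

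The members were far from equal. On the CPM scale 45 of 84 lay between 100 and 300 CPM, 10 lay under 50, and 11 lay over 400. Among those over 400, Rplp0, the base of the ribosomal stalk that recruits elongation factors, had 1091 CPM in replicate 1 and 1426 in replicate 2. Rpl3, which reaches toward the peptidyl transferase centre, had 686 and 1082 CPM. Rpl4, which lines the tunnel of the nascent chain, had 796 and 970 CPM. In each of these 3 genes replicate 1 was the lower library. Rpl41, whose product is a very short peptide, followed at 627 ± 194 CPM. Rps4x, the X-linked form of its protein, stood at 519 ± 175 and Rpl6 at 506 ± 146 CPM (SD, n = 2). Rpl35 at the tunnel exit stood at 474 ± 219, Rpl13 at 465 ± 83.9 and Rpl5, which binds 5S ribosomal RNA together with Rpl11, at 423 ± 142 CPM. From Rpl41 to Rpl5, neighbours in this order differed by less than their SDs.

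Per kilobase Rpl41 stood at 1077 CPM, Rplp0 at 927, Rpl3 at 654 and Rpl4 at 574, so the short Rpl41 came before the other three. The level in CPM had little relation to transcript length across the 84 members (Spearman's rho 0.136 with the longest and 0.222 with the most counted transcript, across genes of the same libraries). In the small subunit, Rps14 (404 ± 122 CPM) and Rps3a1 (384 ± 49.2 CPM) followed Rps4x, and its median was 172 CPM beside 145 CPM in the large subunit. The plot of levels by library shows that most members lie in a narrow middle range, with a long tail to each side in the large subunit.

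**Figure D1:**
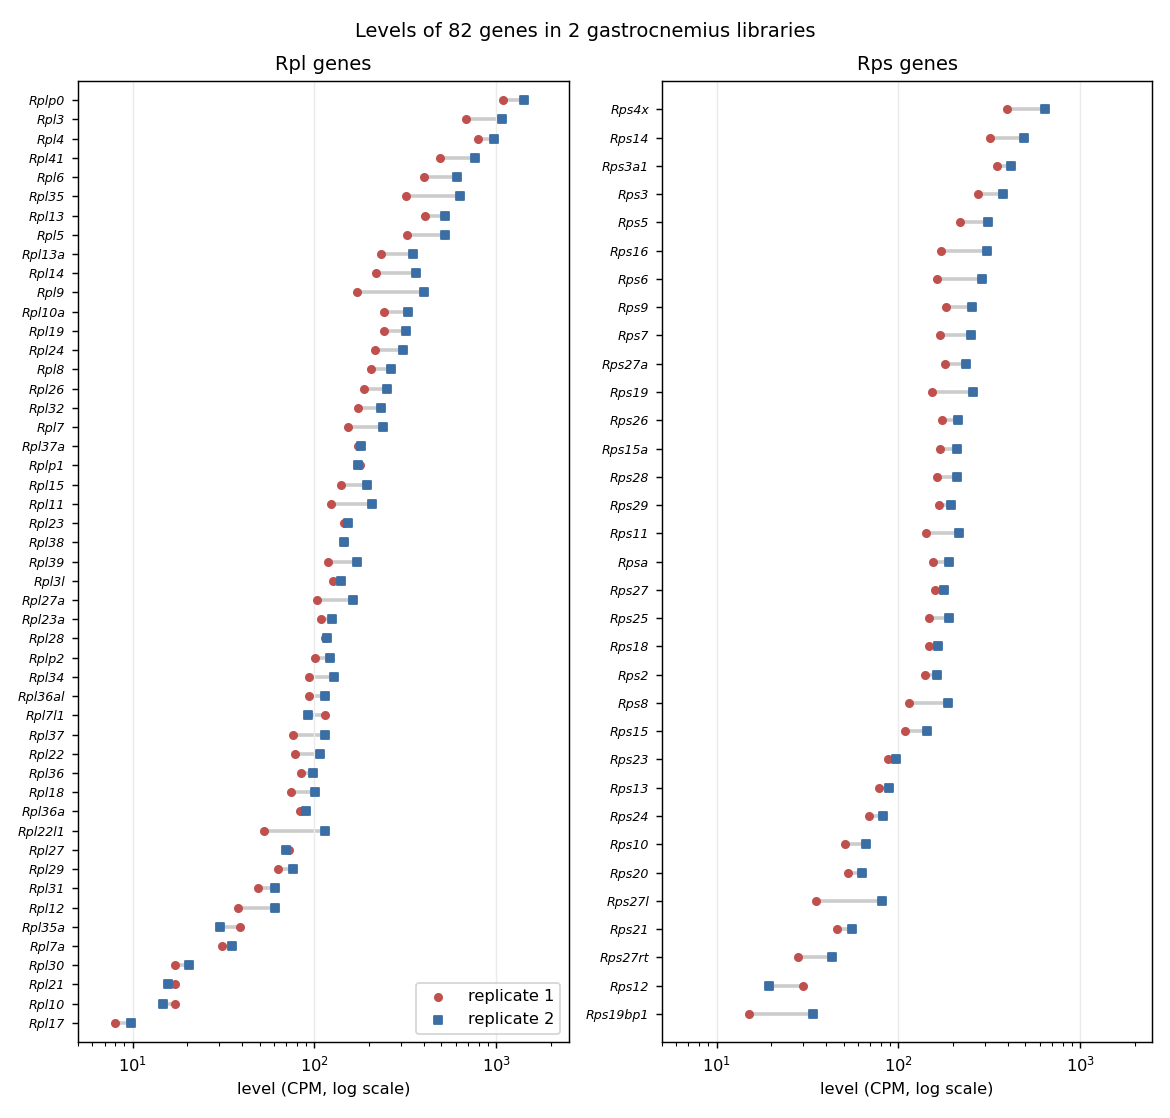
Level of 82 of the 84 genes in CPM on a log axis, Rpl genes on the left and Rps genes on the right, ordered by the mean. Circles are replicate 1 and squares replicate 2, and the grey bar joins them. Rplp0 lies at 1091 CPM or more in both libraries, Rpl17 lies at 10 counts or fewer, and 75 of the genes drawn have a lower value in replicate 1.

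Several of the lowest members have near-identical copies elsewhere in the genome. Rpl17 had 8 counts in replicate 1 and 10 in replicate 2, a mean of 8.88 CPM. Rpl10, which joins the large subunit last and sits next to the P site, had 17 and 15 counts, Rpl21 17 and 16, and Rpl30 17 and 21. Rps12 had 30 and 20 counts, and Rps19bp1 15 and 35. Alignment of all other detected genes to the members' transcripts found 192 genes with at least 85% identity over at least 50% of their own length and 150 bases. Of these, 183 are annotated as processed pseudogenes and 7 as protein-coding, and 95 were at least 99% identical to their parent. In replicate 1 they carried 3039 counts, or 16.6% of the sum of members and copies, and in replicate 2 they carried 4513, or 17.1%. Copies were found for 70 of the 83 ribosomal members.

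In 10 members the copies had more counts than the gene itself in both libraries. The copies of Rpl17 held 76 and 127 counts (90.5% and 92.7% of the sum), those of Rpl21 161 and 221 (90.4% and 93.2%), and those of Rpl10 131 and 181 (88.5% and 92.3%). Rpl10-ps3 alone, 100% identical to Rpl10 over 737 aligned bases and annotated as protein-coding, accounted for 130 and 179 of these. For Rpl35a the copies held 139 and 168 counts beside 39 and 31 on the gene, and for Rpl30 44 and 46 beside 17 and 21. Rpl37, Rps6, Rps2, Rpl31 and Rps13 were the other 5. Outside this group, Rpl3-ps1 held 297 and 540 counts beside 685 and 1110 on Rpl3, and Gm15500, 100% identical to Rpl5 over 1018 bases, held 203 and 350 beside 322 and 537. Reads of a gene and of an identical copy cannot be told apart by these counts, so the levels of these members are uncertain. With the copies added, Rpl17 would stand at 109 CPM, Rpl10 at 170 and Rpl21 at 204.6. The number of ribosomal members under 50 CPM would be 2 in place of 9.

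**Figure D2:**
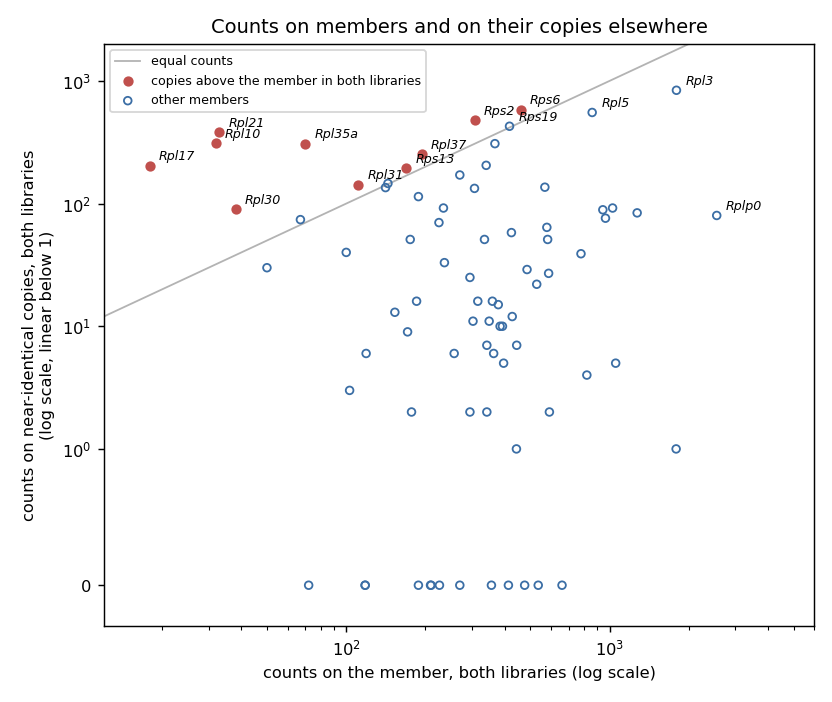
Counts on ribosomal members (horizontal axis) and on their near-identical copies elsewhere in the genome (vertical axis), summed over both libraries, on log axes that turn linear below 1 on the vertical one. Filled points are the 10 members whose copies had more counts than the gene in both libraries, among them Rpl17, Rpl21 and Rpl10, the lowest members.

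Between the libraries, ribosomal protein genes were lower in replicate 1. Each gene with at least 10 counts in sum was put through Fisher's exact test, two-sided, and p-values were adjusted by Benjamini-Hochberg over 11027 genes. The test holds counting error only and compares 2 libraries, not conditions. Of 84 members, 35 (41.7%) were called at 0.05, all of them lower in replicate 1, beside 9.74% of all genes tested in either direction, 5.25% lower and 4.49% higher in replicate 1. The log2 ratio was negative in 77 members and positive in 7, and its median was -0.38, beside 0.04 over all genes tested. The called shares were not matched on count level. With a minimum of 50 counts in sum, 39 of 80 members and 18.3% of all genes were called in either direction. edgeR's exact test was also run with a spread between animals preset as a biological coefficient of variation. At 0.1 it called 4 members and 1.56% of all genes, and at 0.2 no member and 0.508% of all genes.

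The largest called difference was in Rpl9, with 172 counts in replicate 1 and 410 in replicate 2 (log2 ratio -1.21, Fisher's exact test, adjusted p = 9.28e-20). Rps27l had 35 and 83 counts (log2 ratio -1.19, adjusted p = 0.000572 by the same exact test). Rpl22l1 had 53 and 118 (log2 ratio -1.11, adjusted p = 6.91e-05, exact). Rpl35 had 319 and 646 (log2 ratio -0.98, adjusted p = 4.83e-22, exact). Rps16 had 172 and 314 (log2 ratio -0.83, adjusted p = 5.58e-08, exact). Rps27l and Rpl22l1 are second genes of Rps27 and Rpl22, and the other three are core proteins. Among the 7 with a positive ratio, Rps12 had 30 and 20 counts (0.61), Rpl35a 39 and 31 (0.37) and Rpl7l1 114 and 95 (0.30), and none of the 7 passed the test. Rpl38, Rplp1 and Rpl27 had log2 ratios between -0.01 and 0.04, so single members such as Rplp1 (177 and 179 counts) did not follow the median.

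Transcript length moved with this ratio. Among the other genes the median log2 ratio was -0.40 where the most counted transcript had up to 500 bases, -0.43 from 500 to 800, -0.41 from 800 to 1200, -0.22 from 1200 to 2000, 0.10 from 2000 to 4000 and 0.27 above 4000 bases. The members' medians in the first 4 of these bins were -0.23, -0.42, -0.51 and -0.42, and only 3 members were longer. Called lower in replicate 1 were 7.69% of the 13 members of up to 500 bases, beside 8.88% of other genes of that length. From 500 to 800 bases the shares were 50% of 28 members and 17.4% of the others, from 800 to 1200 bases 46.4% of 28 members and 16.1%, and from 1200 to 2000 bases 58.3% of 12 members and 9.41%. Above 2000 bases none of the 3 members was called. These shares compare genes of like length but not of like counts. Counting error is relatively smaller at high counts, so the test calls a given ratio more readily there. The median level was 160 CPM in members and 15.3 CPM in other protein-coding genes with a count. The cell type markers moved as well. Replicate 1 had 4 counts on 5 skin genes, with Krt1, Krt5, Krt14 and Lor at 0, and replicate 2 had 869. The Schwann cell genes Mbp and Pmp22 had 329 and 743 counts in replicate 1 and 989 and 1689 in replicate 2, and erythroid markers 211 counts in replicate 1 and 347 in replicate 2. Of the 4 fibroblast genes, Col1a1 (12494 counts in replicate 1 and 6976 in replicate 2) and Col3a1 (21692 and 15727) were higher in replicate 1, Col1a2 was near equal (1716 and 1715), and Dcn (814 and 969) was lower in replicate 1. The 5 muscle fibre genes Acta1, Ckm, Tnnc2, Mylpf and Des held 9.820% and 12.03% of the counts, so the tissue label fits both libraries. The part of length or of other cells in the lower ribosomal level of replicate 1 was not tested. In such bulk tissue, fewer cells of a type and less RNA per cell cannot be told apart.

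**Figure D3:**
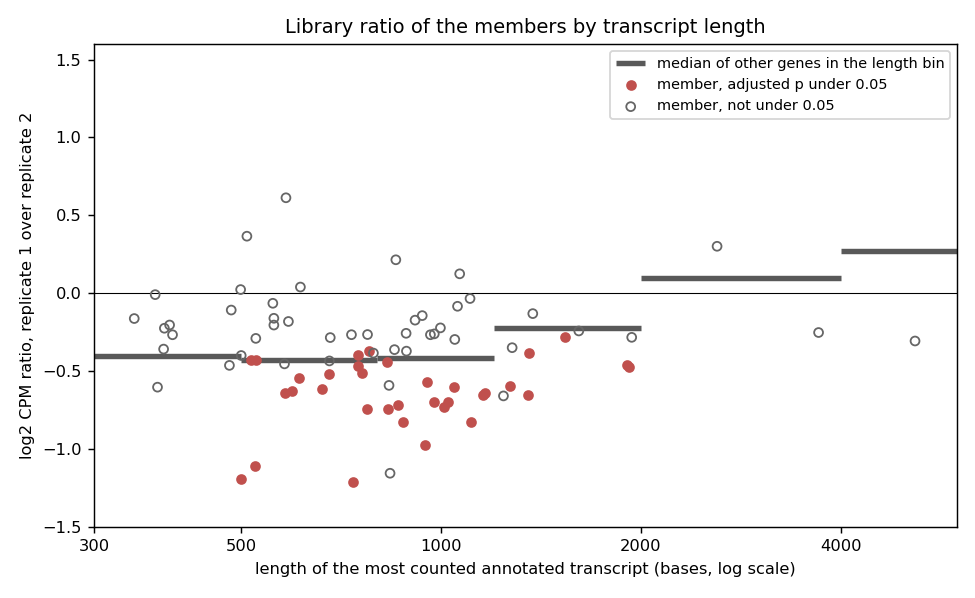
Log2 CPM ratio of replicate 1 over replicate 2 for the members against the length of its most counted annotated transcript on a log axis. Filled points passed the Fisher's exact test at an adjusted p under 0.05, open ones did not, and the bars are medians of the other genes in the length bin. The called members lie below 0, and the bars run from -0.40 for the shortest to 0.27 for the longest genes.

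Rpl3l, the form of Rpl3 that is restricted to heart and skeletal muscle, was already present at this age but as the minor gene of its pair. It had 127 counts in replicate 1 and 143 in replicate 2, a level of 133 ± 8.61 CPM (SD, n = 2), beside 685 and 1110 counts on Rpl3. Its share of the pair was 15.6% in replicate 1 (exact 95% interval 13.2 to 18.3%) and 11.4% in replicate 2 (9.70 to 13.3%), with a mean of 13.5 ± 2.99%. Per kilobase the shares were 15.4% and 11.2%, since both transcripts are of like length (1375 and 1351 bases). The coding sequences of both genes are 74.3% identical, so their reads are distinct. Rpl3-ps1 is 99.8% identical to Rpl3 and not to Rpl3l, and its counts are outside this share.

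Other second genes took larger shares of their pairs. Rpl36al, a close relative of Rpl36a with 87.7% identity in the coding sequence, had 93 and 117 counts beside 83 and 92 on Rpl36a, a share of 52.8% in replicate 1 and 56.0% in replicate 2. Per kilobase of the most counted transcripts (526 and 483 bases) it was 50.7% and 53.9%. Per kilobase of the longest ones (1276 and 483 bases) it was 29.8% and 32.5%, so which gene leads depends on the scale. It also depends on copies, which are outside these shares. Copies of Rpl36a held 21 and 30 counts, and none were found for Rpl36al. With copies added, Rpl36a would stand at 112 CPM, beside 104 CPM on Rpl36al. Rpl22l1 had 40.5% and 51.8% of the counts with Rpl22 (53 and 118 beside 78 and 110). Per kilobase this was 42.9% and 54.3% with the most counted transcripts (525 and 581 bases) and 71.6% and 79.9% with the longest ones (552 and 2051 bases), so Rpl22l1 led in both libraries with the longest transcripts and in replicate 2 alone with the most counted ones. The most counted transcripts were taken as an alternative after the data had been seen. The coding sequences of Rpl7l1 and Rpl7 are 57.3% identical, and shares of counts do not show that one protein replaces the other. Rpl7l1 had 42.9% and 28.0% with Rpl7 (114 and 95 beside 152 and 244), and 25.1% and 14.8% per kilobase with either transcript. Its exact intervals, 36.8 to 49.0% and 23.3 to 33.1%, did not overlap between the libraries. Rps27l, a p53 target, had 18.04% and 31.20% with Rps27 (35 and 83 beside 159 and 183), and these intervals (12.9 to 24.2% and 25.7 to 37.1%) did not overlap either. Per kilobase of the most counted transcripts the Rps27l share was 13.2% and 23.9%, and of the longest ones 14.9% and 26.5%. Both pairs thus differed between libraries by more than counting error, in opposite directions. The intervals of Rpl3l, Rpl36al, Rpl22l1 and Rps4l overlapped, those of Rpl3l only between 13.2 and 13.3%. Overlap does not show that the shares were equal, and no test of the shares is given. No such share was computed over other gene pairs, and 9.74% of all single genes tested were called. Rpl7l1 and Rpl7 (2606 and 1163 bases) lie in length bins where other genes had median log2 ratios of 0.10 and -0.41. Rps27l and Rps27 (499 and 345 bases) share the shortest bin. The part of length in these shares was not tested.

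The testis-type genes Rpl10l and Rpl39l had 0 counts, which beside 118 and 177 counts on Rpl39 allows a share of Rpl39l of up to 3.08% and 2.06% (upper exact 95% bounds). Rps4l, annotated as a transcribed pseudogene, had 14 and 20 counts beside 395 and 660 on Rps4x, a share of 3.42% and 2.94%. Rps27rt, a retrogene with 1 exon and a coding sequence 100% identical to that of Rps27, had 28 and 44 counts, and its reads can be exchanged with those of Rps27.

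**Figure D4:**
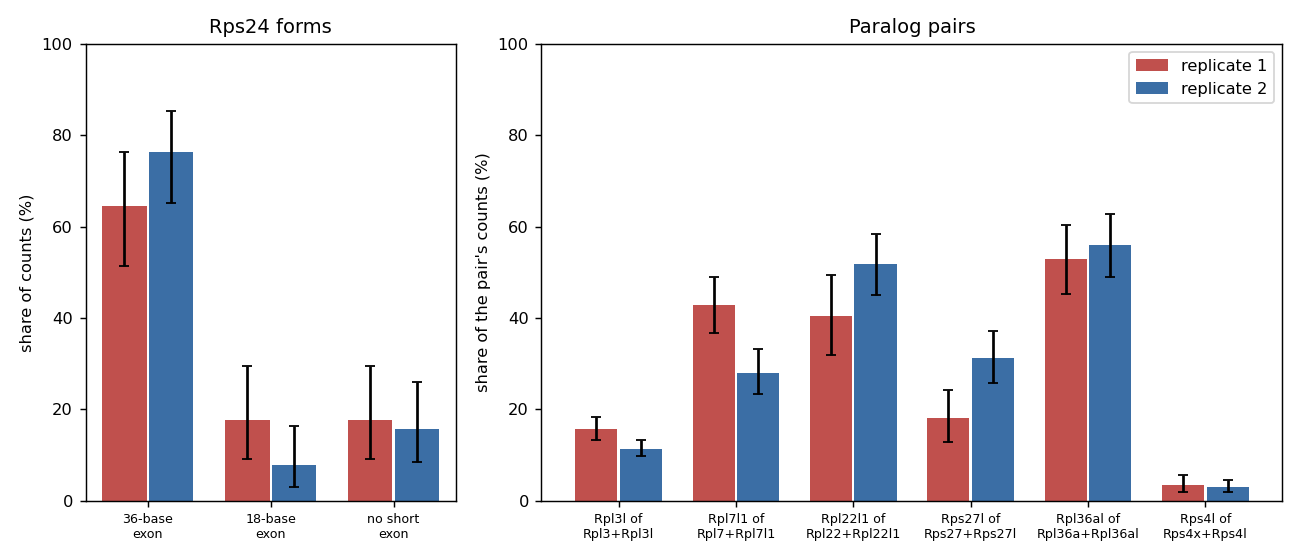
Left, share of the forms of the short Rps24 exon; right, share of the second gene in the counts of 6 paralog pairs, in percent. Left bars are replicate 1 and right bars replicate 2, with exact 95% intervals for counting error. The 36-base form leads in both libraries (64.5% and 76.3%), and Rpl3l makes up 15.6% and 11.4% of its pair.

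Rps24 was the one member with an internal exon at 5 to 95% inclusion in both libraries. Inclusion sets an exon against introns that span it, so alternative exon ends, as in Rpl7l1 below, are not counted. Of 274 internal exons of 76 members with at least 20 counts in each library, 265 were over 99% included in both, 5 were under 5%, and 1 lay between 5 and 95%. Among other genes 1991 of 51126 exons (3.89%) lay in that range. The exception was the 36-base form of the Rps24 exon printed above, whose 3′ end is not an exon end of this exon in GENCODE M21. It was included in 40 counts and skipped in 11 in replicate 1 (78.4%), and included in 58 and skipped in 12 in replicate 2 (82.9%), a mean of 80.6 ± 3.13% (SD, n = 2). The libraries did not differ beyond counting error (Fisher's exact test, adjusted p = 1), beside 0.00973% of all 51400 exons called. Over the 3 forms, the 36-base form had 64.5% and 76.3% of 62 and 76 counts. The annotated 18-base form had 17.7% and 7.89% (11 and 6 counts), and transcripts without the exon 17.7% and 15.8% (11 and 12 counts).

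Either short form changes the end of the protein in the same way. Translated from the annotated start, the transcript without the exon has 133 codons before a TAG in the last exon. With the 18-base or the 36-base form it has 131 codons before the TGA that begins at base 4 of the short exon. The 18 further bases of the longer form lie after this stop, so both forms have the same coding sequence and differ only behind it. The chain with the 36-base exon and 5 introns was the leading one of Rps24, with 30 of 52 and 36 of 57 counts on Known, NIC and NNC models. These are the classes of annotated chains, of annotated splice sites in another combination, and of chains with a splice site outside the annotation. Rps24 was the only one among the 78 members that reached 20 such counts per library whose leading chain was unannotated (1.28%), beside 250 of 5068 other genes (4.93%).

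In most other members 1 chain led among the counts on multi-exon Known, NIC and NNC models. The leading chain was the same in both libraries in all 78 members tested. It took over 90% of these counts in both in 53 of them (67.9%), against 1689 of the 5068 others (33.3%). Its median share of these counts was 96.0% in members and 85.7% in the others. Models with only part of an annotated chain (9.76% of member counts), single-exon models and genomic models are outside these shares. In Rps21 the leading chain had 29 of 30 such counts in replicate 1, where the gene had 46 counts in all. Members with a second frequent annotated chain included Rpl31 (leading chain 43.2% and 57.6%), Rpl38 (63.6% and 57.4%), Rpl22l1 (67.9% and 61.0%) and Rpl28 (63.6% and 69.7%). Others, such as Rps27a (80.2% and 79.7%), are not all listed. Annotated models carried 88.2 ± 0.285% of member counts, NIC models 0.559 ± 0.0820% and NNC models 1.09 ± 0.163% (SD, n = 2). In other protein-coding genes these shares were 73.6 ± 2.09%, 7.14 ± 0.531% and 6.64 ± 1.47%. Members carried 297 unannotated chains, of which 49 occurred in both libraries and 229 had a single count.

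After Rps24, the highest share on unannotated chains among members with at least 50 counts in each library was in Rpl7l1, where they took 40 of 114 counts in replicate 1 and in replicate 2 took 32 of 95. Rpl21, below that minimum, had 7 of 17 and 8 of 16. Most of the unannotated counts of Rpl7l1 were on 1 chain whose exon ended 5 bases further into the intron than annotated, with 36 and 26 counts beside 63 and 47 on the annotated chain. The bases are given 5′ to 3′ on the - strand with the 5 further bases in capitals.
Rpl7l1, chr17:46778042-46778066, mm10: ctagagcaggagcagGTGAGgcgag
The stop codon (TAG) ends 11 bases before the annotated exon end, so both chains have the same 246 codons. The next exon begins with GTTTT and not with these 5 bases. The intron begins with GT at the annotated exon end, and with GC where the exon ends 5 bases further. Rpl3l had 16 and 14 counts on unannotated chains (12.6% and 9.79%), Rplp2, a stalk protein, 6 and 7 (5.94% and 5.60%), and Rps15 5 and 4 (4.59% and 2.70%).

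Most spliced counts assigned to Rpl5 lay on the 3′ part of its coding chain. It lies at chr5:107900502-107909005 on the + strand, and its longest coding transcript has 8 exons. Its leading chain held only the last 2 of the 7 introns and was assigned to an annotated transcript of the type retained intron, which took 239 of 322 counts in the first library and 401 of 537 in the second. The complete coding chain had 71 and 120. The introns of that transcript equal the last 2 of the coding chain, and the counts give no start of single reads, so reads of a shortened coding transcript and of the annotated short one cannot be told apart. Taking both kinds together, 76.9% of the spliced Rpl5 counts in replicate 1 and 76.7% in replicate 2 lay on the 3′ part of a coding chain. The copy Gm15500, 100% identical to Rpl5 over 1018 bases, held 203 and 350 counts that are outside this share. Rpl5 reads placed on the copy would be missing from it, so the share of all Rpl5 reads is uncertain. Chains on the 3′ part were uncommon in most members. Of 71 members with at least 50 spliced counts in each library, 59 had under 10% of them on the 3′ part of a coding chain, and the median was 2.50%. Rpl3l had 16.7% and 19.6%, and Rpl6 18.4% and 10.6%. Rpl41, Rpl35, Rps14 and Rps3a1 were read almost wholly as complete coding chains, as the plot of intron chains shows.

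**Figure D5:**
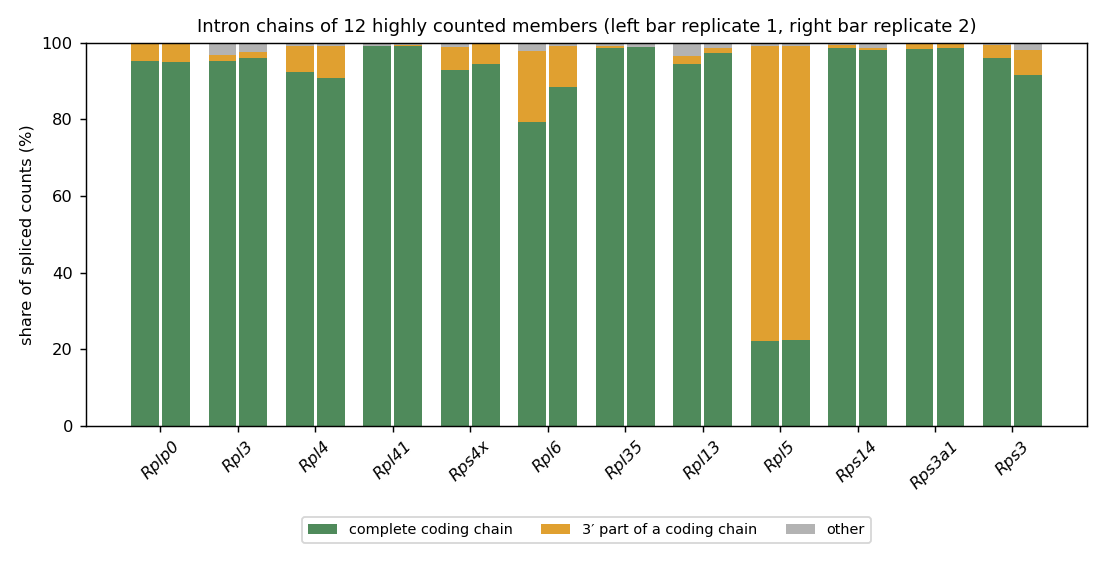
Share of spliced counts in percent for 12 highly counted members, on complete annotated coding chains, on the 3′ part of such a chain, and on other chains. The left bar of each pair is replicate 1 and the right bar replicate 2. Rpl5 has about 77% on the 3′ part in both libraries, and the other 11 genes lie below 20%. Counts on copies of the genes, such as Gm15500 for Rpl5, are not included.

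Reads without a splice were rare among the counts assigned to the members. Counts on the near-identical copies, of which 183 of 192 are annotated as processed pseudogenes, are outside the shares given here. In the 83 members with an annotated multi-exon coding transcript, models with 1 exon held 0.983 ± 0.00371% of counts (SD, n = 2), against 4.26 ± 0.416% in other protein-coding genes. No such count was seen in 29 members, and 71 were under 2%. The highest share was in Rpl39, a short protein of the exit tunnel, at 22.9% in replicate 1 (27 of 118 counts) and 39.5% in replicate 2 (70 of 177), all on 1 model of 230 bases at its last exon. Rpl22 had 10 of 78 and 15 of 110, mostly on models of the genomic class, whose exon does not keep to an annotated one. Rps27a had 9 of 181 and 11 of 243, Rps15 5 of 109 and 5 of 148, and Rps3a1 7 of 349 and 25 of 430. Besides Rpl5, members with at least 5% of annotated counts on transcripts of a noncoding type in both libraries included Rpl10a (17 and 17 counts) and Rps12 (2 and 2).

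Genes of ribosome assembly, RNA polymerase I and the regulators had median levels of 43.2, 20.7 and 54.1 CPM, beside 160 CPM in the members. Single genes of these lists, such as Cnbp, lay above the median of the members. Of the ribosomal proteins with other names, Fau had 100 and 154 counts and was called lower in replicate 1, and Rack1 had 104 and 149 and was not called. Of 30 ribosome assembly factors, with a median of 43.2 CPM, 1 was called lower in replicate 1 and 1 higher, against 5.25% and 4.49% of all genes tested, and their median log2 ratio was -0.07. The one lower was Nhp2, a protein of the box H/ACA particles, with 40 and 85 counts, and the one higher was Bysl, a factor of the small subunit, with 74 and 44. Highest of that list were the nucleolar proteins Ncl (205.1 ± 11.6 CPM) and Npm1 (176 ± 32.2 CPM) and the factor Eif6, which keeps the subunits apart (126 ± 25.5 CPM), and lowest was Tsr2 (10.4 ± 0.499 CPM, SD, n = 2). None of the 9 genes of RNA polymerase I, which transcribes ribosomal RNA, was called by the Fisher's exact test, beside 9.74% of all genes. Ubtf was highest at 81.2 ± 18.3 CPM, followed by Polr1d (68.2 ± 0.0832) and Rrn3 (55.4 ± 9.45), and Taf1c was lowest (11.4 ± 0.480). Of 10 regulators of the oligopyrimidine messages, Cnbp (1073 ± 199 CPM) and Eif4ebp1 (218 ± 46.1 CPM) were called lower in replicate 1, where 5.25% of all genes were. Rps6kb1 stood at 81.5 ± 3.32 CPM, Larp1 at 53.0 ± 17.1 and Mtor was lowest at 20.3 ± 3.88 CPM.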

How the data were processed

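The deposited tables hold raw counts of long reads per transcript model, per the file headers, and the authors' models lie on mm10 with GENCODE M21 identifiers. No aligner is named in the labels or headers. Library totals were 1066347 counts in replicate 1 and 1100253 in replicate 2. Each gene's counts in all classes were added up, and CPM used annotated mouse genes as the denominator, without spike-ins and unannotated loci. Chains were matched by coordinates. Libraries were compared by Fisher's exact test (scipy 1.17.1), which was tested on simulated counts, and log2 ratios use a prior count of 0.5. edgeR 4.0.16 and DESeq2 1.42.0 served for alternatives only. Sequences came from GENCODE M21 transcripts, and copies were found with blastn. Named genes followed a fixed rule: the highest and lowest members, paralog pairs, largest called ratios, and the highest shares of single-exon, unannotated and noncoding models. Other genes, such as copies, Rplp1 and Rps14, were named after their values were seen. The members and lists were chosen with earlier results of these data known. The labels do not say that replicates came from separate animals, so SDs may be technical. Some genes under this rule are left out of the text.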

Additional observations from a re-analysis of the deposited data

How the results depend on the processing

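The number of members called depends on the spread assumed between animals. It was 35 of 84 with counting error alone (9.74% of all genes), 4 with a preset BCV of 0.1 (1.56% of all genes) and 0 with 0.2 (0.508% of all genes). Other scalings, count minimums and classes gave 33 to 39 called members, all lower in replicate 1, beside 5.05 to 18.3% of all genes in either direction. The 18.3% came with a minimum of 50 counts, where 39 of 80 members were called. Inclusion of the 36-base Rps24 exon was 77.3% with Known, NIC and NNC models only and 70.4% as a share of all 3 forms, the second chosen after seeing the data. The single-exon share of members was 0.588% without the genomic class and 0.405% as a median over members with at least 50 counts. With multi-exon models whose introns are part of an annotated chain (ISM), 2 members had an unannotated leading chain, Rps24 among them. The other 30 alternatives left their results on the same side. Each replicate alone gave a member share of 1.53 and 2.14%, an Rpl3l share of 11.4 and 15.6%, Rps24 inclusion of 78.4 and 82.9%, single-exon shares of 0.981 and 0.986%, and a rank correlation with length of 0.102 and 0.147. With the near-identical copies the member share was 2.21%, an alternative chosen after seeing the data. No paired analysis was possible because the series has 1 group. With 1 library a side, counting error is the only error the test holds.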
